A study of Mus musculus with 6 samples.

Results

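The 52 genes described here encode proteins of the small nuclear ribonucleoproteins (snRNPs), the particles that carry out pre-mRNA splicing, and close relatives that share their names. They were chosen by symbol among the 24047 rows of the count table. Symbols starting with Snrp, Snrnp, Sf3a, Sf3b, U2af, Prpf or Lsm gave 54 rows after 4 had been left out by name (Prpf4b, Snrnp25, Snrnp35 and Snrnp48), and a row had to hold 10 or more counts in at least 3 libraries. That minimum dropped Snrpn, with 0 counts in every library, and Lsmem1, with 1, 1 and 0 counts in the libraries labelled Srsf1-cKO and 0 in each WT library. The lowest row that stayed in, Prpf40b, held 27, 27 and 14 counts in the libraries labelled Srsf1-cKO and 41, 24 and 29 in WT. All 52 passed the low-count filter of the test. The choice used names and a count minimum, not the difference between genotypes.

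RNA was sequenced from 3 libraries of mice with the genotype Srsf1-flox/flox dLck.Cre (called Srsf1-cKO) and 3 of mice labelled WT, all of strain B6.129 and 7 weeks old, and the series' design text gives 3 mice per group. The Cre transgene is named for Lck, the gene of a T cell kinase, and nothing read here says whether the WT mice carry floxed alleles or Cre. In both groups naive CD4 T cells from spleen were first activated through the T cell receptor and its costimulator, with anti-CD3 at 0.5 µg/mL and anti-CD28 at 1 µg/mL over 72 h. A final 4 h with 100 ng/mL PMA, a phorbol ester, and 1 µM ionomycin followed, and the labels call the result Th0 effector cells.

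Introns are removed by a machine that is assembled anew on each intron. The U1 snRNP binds the 5′ splice site, U2AF reads the 3′ splice site, and the U2 snRNP with its SF3a and SF3b subcomplexes settles on the branch point. The pre-formed tri-snRNP of U4, U6 and U5 then joins, U4 leaves, and the Prp19 complex helps to hold the active form together. U1, U2, U4 and U5 RNAs each carry a ring of Sm proteins, while U6 RNA carries a ring of LSm proteins at its 3′ end. SRSF1, the protein that the knockout targets, is known to bind exonic enhancers and to help U1 and U2AF onto weak splice sites. Activated T cells enlarge and raise their output of mRNA, and with it their need for this machinery.

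Srsf1 mRNA itself did not separate the groups. It stood at 523, 548 and 471 CPM (counts scaled by TMM to a common library size) in the libraries labelled Srsf1-cKO, against 540.5, 458 and 486 CPM in WT, and the ranges overlap. The log2 fold change was 0.06 (SE 0.12, edgeR adjusted p = 0.78; exact two-sided permutation p = 0.7). Gene-level counts do not show whether single exons were lost. The libraries are therefore called by their labels, and each direction below is that of those labels. The libraries held between 8573465 and 10184268 gene counts in the group labelled Srsf1-cKO and between 7781283 and 9650828 in WT. CD4 T cell markers were present in every library, with the 6 listed genes in the count table summing to between 1420 and 1933 CPM in the libraries labelled Srsf1-cKO and between 1521 and 1863 CPM in WT. Cd3g rose among them and the others did not pass. Markers of other cells were low, and most of their list sums differed with genotype. Not every gene of a list did so, and Emr1 of the myeloid markers, for example, overlapped between groups. The 6 B cell markers summed to between 9.01 and 23.2 CPM in the libraries labelled Srsf1-cKO and between 1.45 and 7.80 CPM in WT, with 1 of 5 tested higher. The 6 myeloid markers summed to between 7.89 and 23.5 CPM against between 0.792 and 4.75 CPM in WT, with 1 of 2 tested higher. The 6 dendritic cell markers summed to between 97.5 and 122 CPM against between 52.5 and 77.9 CPM, with 2 of 3 tested higher. Cd74 made up most of that sum in every library. H2-Ab1 and Flt3 overlapped between groups, and Siglech stood at 0 counts throughout. The 4 NK cell markers summed to between 7.89 and 25.5 CPM against between 0.528 and 1.82 CPM, with 2 of 2 tested higher, and Ncr1 stood at 0 counts. The 2 CD8 T cell markers summed to between 16.7 and 22.8 CPM against between 24.6 and 42.5 CPM, with 0 of the 1 tested passing, and the 4 erythroid markers stood at 0. Of 4 heat shock genes tested 3 fell, and the 5 in the table summed to between 412 and 554 CPM in the libraries labelled Srsf1-cKO against between 515 and 933 CPM in WT. Hsph1, which did not pass, made up most of that sum. Hspa1a stood at 1.30, 0.893 and 1.13 CPM in the libraries labelled Srsf1-cKO, against 154, 126 and 4.49 CPM in WT. Hspa1b stood at 2.70, 2.12 and 1.5 CPM in the libraries labelled Srsf1-cKO, against 226, 206 and 12.0 CPM in WT, so that WT replicate 3 lies far below the other WT libraries in both. Rn45s, the precursor of ribosomal RNA, stood at between 16030 and 18260 CPM against between 6071 and 20200 CPM. The part of these shifts in the results below was not tested.

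No member of the set differed by as much as 2-fold between the groups, and few passed the test. The edgeR quasi-likelihood test over 10454 genes called 6 of the 52 (11.5%), of which 5 rose (9.62% of the 52) and 1 fell (1.92%). Of all genes tested it called 18.4% (8.9% higher and 9.5% lower), so in this fit the share of these genes called lay below that background. The shortfall was in the lower direction, while the share called higher lay near its background. How the shares compare depended on the scale, as given below. Snrpd1, Snrnp40, Prpf38a, Lsm6 and Lsm8 rose, by 1.35-fold to 1.61-fold, and Prpf38b fell to 0.645-fold. The median log2 fold change was 0.14 over the 52 genes and 0.01 over all genes tested, and 30 of the 52 (57.7%) lay above 0 against 50.5% of all genes. The CPM values of the groups did not overlap for 22 of the 52 (42.3%, with 39.4% among all genes tested). Of these, 17 were higher in the libraries labelled Srsf1-cKO (32.7%, against 19.9% of all genes) and 5 were lower (9.62%, against 19.5%). At an unadjusted p under 0.05, 14 of the 52 were higher and 2 lower, or 30.8%, against 34.9% of all genes (17.2% higher and 17.7% lower). In bulk RNA such as this, a change in the cells that make up a culture and a change in RNA per cell cannot be told apart.

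**Figure D1:**
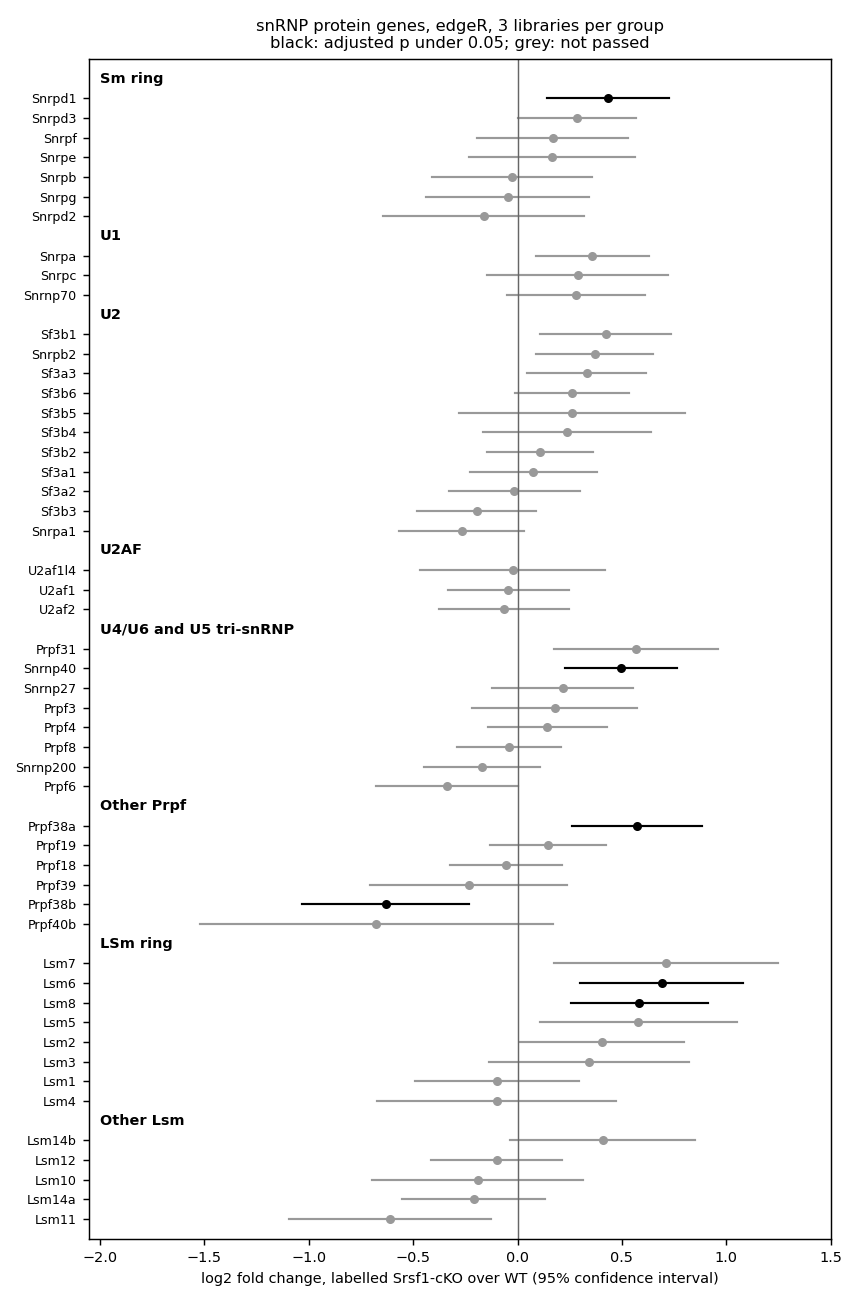
Log2 fold changes of 51 of the 52 genes, libraries labelled Srsf1-cKO over WT (x axis), with 95% confidence intervals from edgeR, by role of the protein (3 libraries per group). The 6 genes in black passed at an adjusted p under 0.05, 5 of them to the right of 0 and Prpf38b to the left, while all 3 U2AF genes sit close to 0.

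The calls depended on WT replicate 1 and Srsf1-cKO replicate 2. Without WT replicate 1 the test called 0 of the 52 genes (10 at an unadjusted p under 0.05) and 1.84% of all genes, and without Srsf1-cKO replicate 2 it called 0 (8 at an unadjusted p under 0.05) and 2.2% of all genes. With WT replicate 2 left out it called 6 (18.7% of all genes), with WT replicate 3 left out 5 (18.5%), and with Srsf1-cKO replicate 1 or 3 left out 4 each (10.6% and 13%). In that order, 5, 3, 3 and 2 of these were among the 6 called with all libraries. Without WT replicate 3 the 5 were 2 higher and 3 lower, where 904 and 1074 of 10667 genes were called. DESeq2 called 6 higher and 1 lower, where 9.14% and 10.4% of all genes were called (19.6% together), and Prpf31 was the one it added. Limma-voom called 5 higher and 1 lower, where 8.95% and 9.18% were called (18.1% together), with Prpf31 in place of Snrpd1. Limma on log2(FPKM + 1) called 11 higher and 0 lower, where 12.3% and 6.39% were called (18.7% together). Those 11 were Snrpd1, Snrnp40, Prpf38a, Lsm6, Lsm8, Prpf31, Snrpd3, Snrpa, Snrpb2, Sf3b1 and Lsm7. The split depended on scaling. With library size alone 10 of the 52 were higher and 0 lower, where 1268 and 709 of 10454 genes were called. In that fit 64.1% of all called genes were higher instead of 48.4%, with the median of all genes at 0.11 instead of 0.01. On the FPKM scale 65.9% of called genes were higher and the median of all genes was 0.10. The rises on these 2 scales are measured from 0 and not from those medians.

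**Figure D2:**
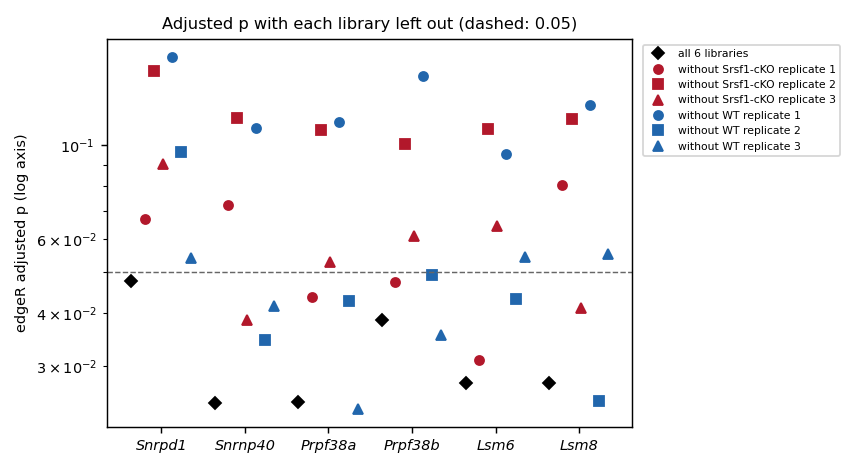
Benjamini-Hochberg adjusted p from edgeR (y axis, log scale) for the 6 genes that passed, with all 6 libraries (black diamonds) and with each library left out (symbols by library; dashed line, 0.05). With either WT replicate 1 or Srsf1-cKO replicate 2 left out, all 6 genes lie above the line, and Snrpd1 lies above it whichever library is left out.

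The Sm proteins form the ring around U1, U2, U4 and U5 RNA. Of the 7 genes 1 rose (8.9% of all genes) and 0 fell (9.5%), with a median log2 fold change of 0.16. That gene was Snrpd1, which encodes the D1 subunit. It stood at 152, 168 and 189 CPM in the libraries labelled Srsf1-cKO, against 125, 119 and 134 CPM in WT. The groups do not overlap, but WT replicate 3 and Srsf1-cKO replicate 1 lie close together. The log2 fold change was 0.43 (SE 0.13, edgeR adjusted p = 0.0477), and the gene missed the threshold in each of the 6 fits that left out a library (adjusted p between 0.0542 and 0.162). Snrpd3, which encodes the D3 subunit, stood at 126, 132 and 134 CPM in the libraries labelled Srsf1-cKO against 117, 95.6 and 109.8 CPM in WT, without overlap. Its log2 fold change of 0.28 missed the threshold (adjusted p = 0.143). The lowest log2 fold change of the ring was that of Snrpd2, whose D2 protein pairs with D1 (-0.16, SE 0.21, adjusted p = 0.62), with overlapping groups. Snrpb, which encodes the B subunit, Snrpe, Snrpf and Snrpg had log2 fold changes between -0.05 and 0.17. Snrpb has a close relative in Snrpn, expressed mainly in neurons, whose row was at 0 here.

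Of the 3 genes of U1-specific proteins, 0 passed in edgeR, DESeq2 or limma-voom. On the FPKM scale 1 passed as higher (12.3% of all genes), and 1 was higher at an unadjusted p under 0.05 in edgeR (17.2%). That gene was Snrpa both times. All 3 log2 fold changes were positive and lay close together. Snrpa, whose protein binds a stem-loop of U1 RNA, stood at 97.5, 93.6 and 87.0 CPM in the libraries labelled Srsf1-cKO, against 72.9, 74.0 and 70.1 CPM in WT. The groups lie well apart, yet the log2 fold change of 0.36 (SE 0.12) had an adjusted p of 0.0686. Snrnp70, whose protein is contacted by SRSF1 at the 5′ splice site, had a log2 fold change of 0.28 (95% confidence interval -0.05 to 0.61, adjusted p = 0.204), and its groups overlap through WT replicate 1 at 151 CPM. Snrpc, which steadies the pairing of U1 RNA with the splice site, had a log2 fold change of 0.29 (95% confidence interval -0.14 to 0.72).

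Among the 11 genes of the U2 particle 0 passed in edgeR, DESeq2 or limma-voom, although 5 were higher and 2 lower without overlap (19.9% and 19.5% of all genes), and 3 were higher at an unadjusted p under 0.05 (17.2% of all genes). Limma on the FPKM scale called 2 higher (12.3% of all genes), Sf3b1 and Snrpb2. Sf3b1 encodes the large SF3b subunit that clamps the branch point. It stood at 766, 764 and 610.2 CPM in the libraries labelled Srsf1-cKO, against 569, 551 and 477 CPM in WT. Srsf1-cKO replicate 3 is the one nearest to WT, and the log2 fold change was 0.42 (SE 0.14, adjusted p = 0.0646). With that library left out it passed at 0.0376, and it missed in the other 5 such fits, at 0.0971 to 0.219. Snrpb2, one of the proteins specific to U2 RNA, stood at 117, 126 and 133 CPM in the libraries labelled Srsf1-cKO and 93.6, 106 and 91.9 CPM in WT (log2 fold change 0.37, SE 0.12, adjusted p = 0.0674). The other U2-specific protein, encoded by Snrpa1, lay on the other side, at 143.1, 131 and 120.3 CPM in the libraries labelled Srsf1-cKO and 176, 143.5 and 155 CPM in WT. Its groups all but touch, at Srsf1-cKO replicate 1 and WT replicate 2, and the log2 fold change was -0.27 (SE 0.13, adjusted p = 0.185). These are the proteins of 1 heterodimer on U2 RNA, so its genes had opposite signs here, with neither called. The SF3a genes Sf3a1, Sf3a2 and Sf3a3 had log2 fold changes of 0.08, -0.01 and 0.33, and the remaining SF3b genes Sf3b2 to Sf3b6 between -0.20 and 0.26.

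U2AF, the pair of proteins that finds the polypyrimidine tract and the AG at the end of an intron, had log2 fold changes close to 0 throughout. The log2 fold changes of U2af1, U2af2 and the paralog U2af1l4 were -0.04 (95% confidence interval -0.33 to 0.24), -0.07 (-0.38 to 0.25) and -0.02 (-0.47 to 0.42). U2af1 stood at 139.6, 146 and 142 CPM in the libraries labelled Srsf1-cKO, inside the WT values of 158, 127 and 156 CPM. Of the 3 genes 0 passed in edgeR, DESeq2, limma-voom or limma on FPKM, and 0 had an unadjusted p under 0.05. The signs of all 3 turned positive with library-size scaling and on the FPKM scale, at log2 fold changes of at most 0.10.

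Of the 8 genes of the tri-snRNP 1 rose (8.9% of all genes) and 0 fell (9.5%), with a median log2 fold change of 0.16. Snrnp40, which encodes a WD-repeat protein of the U5 particle, rose to 83.4, 86.6 and 84.2 CPM in the libraries labelled Srsf1-cKO, against 58.8, 61.7 and 59.8 CPM in WT. Within each group these values hardly vary, and the gap between groups is several times the spread. The log2 fold change was 0.50 (SE 0.12, edgeR adjusted p = 0.0245), and it passed in 3 of the 6 fits that left out a library, but not without Srsf1-cKO replicate 1 (0.0724), Srsf1-cKO replicate 2 (0.116) or WT replicate 1 (0.11). Prpf31, which holds U4/U6 and U5 together, stood at 68.8, 79.4 and 70.2 CPM in the libraries labelled Srsf1-cKO and 47.3, 60.4 and 39.7 CPM in WT. It had a log2 fold change of 0.57 (SE 0.17) and just missed the threshold in edgeR (adjusted p = 0.0515), while DESeq2 gave 0.0306 and limma-voom 0.0441, and edgeR 0.0215 with WT replicate 2 left out. The other 5 fits that left out a library missed, at 0.0818 to 0.185. A gene model on the other strand, Gm15927, overlaps exons of Prpf31, and reads of the pair cannot be told apart where the counting ignored strand. Prpf6 encodes another bridging protein and had the lowest log2 fold change (-0.34, SE 0.15, adjusted p = 0.147), with 79.3, 84.7 and 88.3 CPM in the libraries labelled Srsf1-cKO and 107, 123.6 and 87.8 CPM in WT. Without WT replicate 3, the lowest of its group, the adjusted p was 0.0447, and in the other 5 such fits it lay between 0.166 and 0.322. The ratio of Prpf31 to Prpf6 CPM was 0.868, 0.937 and 0.795 in the libraries labelled Srsf1-cKO and 0.441, 0.488 and 0.453 in WT, a description chosen after the values were seen.

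The largest proteins of the spliceosome's core did not pass. Prpf8, which cradles the active site, stood at 799, 829.9 and 802 CPM in the libraries labelled Srsf1-cKO, against 814, 812 and 877 CPM in WT. Those values interleave, and the log2 fold change was -0.04 (95% confidence interval -0.29 to 0.21), positive at 0.06 with library-size scaling and on the FPKM scale. Snrnp200, the helicase that unwinds U4 from U6, had a log2 fold change of -0.17 (SE 0.12, adjusted p = 0.35). The remaining Prpf3 and Prpf4, which travel with U4/U6, and Snrnp27 had values between 0.14 and 0.22.

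Prpf38a and its paralog Prpf38b moved in opposite directions. Prpf38a belongs to the factors that join with the tri-snRNP and are needed for activation, as known from its yeast counterpart. It rose to 68.6, 78.1 and 81.9 CPM in the libraries labelled Srsf1-cKO, against 47.6, 50.7 and 55.4 CPM in WT, with no overlap (log2 fold change 0.57, SE 0.14, edgeR adjusted p = 0.0246). Prpf38b fell to 187, 176 and 123 CPM in the libraries labelled Srsf1-cKO, against 285, 233 and 236.5 CPM in WT (log2 fold change -0.63, SE 0.18, edgeR adjusted p = 0.0385). Srsf1-cKO replicate 3 is the lowest for Prpf38b and the highest for Prpf38a. The ratio of Prpf38a to Prpf38b CPM was 0.366, 0.443 and 0.663 in the libraries labelled Srsf1-cKO and 0.167, 0.218 and 0.234 in WT. This ratio restates the opposite moves of the genes, and is a description chosen after the values were seen. Each gene passed in 3 of the 6 fits that left out a library. Prpf38a missed the threshold without Srsf1-cKO replicate 2 (0.109), Srsf1-cKO replicate 3 (0.0529) or WT replicate 1 (0.114), and Prpf38b without the same libraries (0.101, 0.0609 and 0.146). On the FPKM scale Prpf38b missed the threshold (log2 fold change -0.54, limma adjusted p = 0.0623), and with library-size scaling its adjusted p was 0.0552.

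The other Prpf genes did not pass. Prpf40b, the least abundant of the 52 per length, had the lowest value of all 52 at -0.68 but an SE of 0.37 (adjusted p = 0.23). Prpf18, Prpf19 and Prpf39 had log2 fold changes of -0.05, 0.15 and -0.23. Prpf19 is the ubiquitin ligase of the Prp19 complex.

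**Figure D3:**
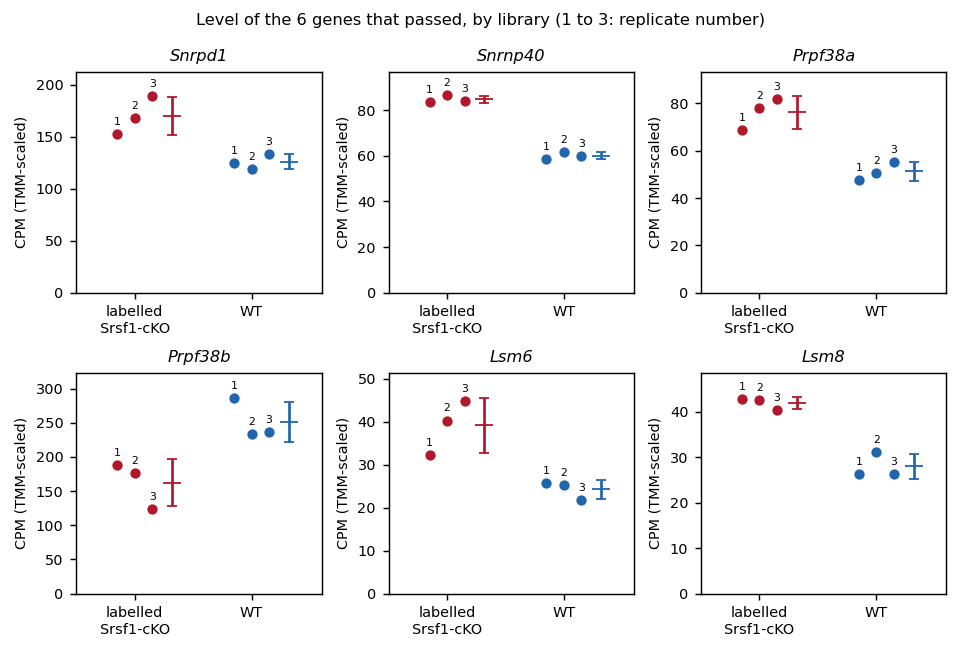
TMM-scaled CPM (y axis from 0) of the 6 genes that passed, in the 3 libraries labelled Srsf1-cKO (red, left) and the 3 WT libraries (blue, right), with replicate numbers and the mean ± SD beside the points. In each panel the groups do not overlap, most closely for Snrpd1 (152 against 134 CPM), and of the 6 genes Prpf38b alone has its red points below the blue ones.

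The LSm ring held the largest positive log2 fold changes of the 52 genes. Of its 8 genes 2 rose (8.9% of all genes) and 0 fell (9.5%). At an unadjusted p under 0.05, 5 were higher (17.2% of all genes), and 5 were higher without overlap (19.9%), with a median log2 fold change of 0.49. Lsm6 rose to 32.3, 40.3 and 44.9 CPM in the libraries labelled Srsf1-cKO, against 25.8, 25.2 and 21.8 CPM in WT. Every library of the first group lies above WT, with Srsf1-cKO replicate 1 nearest to it (log2 fold change 0.69, SE 0.17, edgeR adjusted p = 0.0274). Lsm8, the subunit that marks the nuclear ring on U6 RNA, rose to 42.8, 42.6 and 40.4 CPM in the libraries labelled Srsf1-cKO, against 26.4, 31.2 and 26.4 CPM in WT. Its log2 fold change was 0.58 (SE 0.14, edgeR adjusted p = 0.0273). Each of these genes passed in 2 of the 6 fits that left out a library. Lsm6 passed without Srsf1-cKO replicate 1 (0.031) or WT replicate 2 (0.0432), and its adjusted p lay between 0.0544 and 0.109 in the others. Lsm8 passed without Srsf1-cKO replicate 3 (0.0412) or WT replicate 2 (0.0247), and lay between 0.0553 and 0.124 in the others.

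The shared subunits around them mostly pointed the same way without passing. Lsm7 had the highest log2 fold change of the 52 genes, at 0.71 (SE 0.24, adjusted p = 0.0671), from 61, 86 and 84 counts in the libraries labelled Srsf1-cKO and 44, 37 and 38 counts in WT. Lsm5, the most abundant LSm gene per length, stood at 29.9, 42.6 and 49.6 CPM in the libraries labelled Srsf1-cKO, against 23.4, 29.7 and 28.8 CPM in WT (log2 fold change 0.58, SE 0.21, adjusted p = 0.0835). It passed without Srsf1-cKO replicate 1 (0.0423) and missed in the other 5 such fits, at 0.0972 to 0.27. Lsm2 and Lsm3 had log2 fold changes of 0.40 (adjusted p = 0.133) and 0.34 (adjusted p = 0.279). Lsm4 stood apart, at 28.5, 30.5 and 54.0 CPM in the libraries labelled Srsf1-cKO and 43.3, 44.2 and 33.7 CPM in WT, with the groups crossing (log2 fold change -0.10, SE 0.25, adjusted p = 0.808). Srsf1-cKO replicate 3 was the highest library for Lsm2, Lsm3, Lsm4, Lsm5 and Lsm6.

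Lsm1 replaces Lsm8 in a second, cytoplasmic ring that works in mRNA decay and shares the other subunits. Its CPM values were 30.1, 34.5 and 35.7 in the libraries labelled Srsf1-cKO and 35.0, 29.7 and 42.6 in WT, within each other's range (log2 fold change -0.10, 95% confidence interval -0.49 to 0.30, adjusted p = 0.723). The ratio of Lsm8 to Lsm1 CPM was 1.42, 1.24 and 1.13 in the libraries labelled Srsf1-cKO and 0.754, 1.05 and 0.619 in WT. These ratios do not overlap, and they are a description chosen after the values were seen.

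Of the 5 genes with Lsm names outside these rings, 0 passed in edgeR, DESeq2, limma-voom or limma on FPKM, and 1 was lower at an unadjusted p under 0.05 (17.7% of all genes). That gene was Lsm11, which with Lsm10 replaces a pair of Sm proteins in the U7 snRNP that trims histone mRNA ends. It stood at 23.8, 25.9 and 17.6 CPM in the libraries labelled Srsf1-cKO, against 37.0, 39.3 and 26.1 CPM in WT, where WT replicate 3 all but meets Srsf1-cKO replicate 2 (log2 fold change -0.61, SE 0.21, adjusted p = 0.0779). With WT replicate 3 left out it passed at 0.0269, and it missed in the other 5 such fits, at 0.13 to 0.222. Lsm10 had a log2 fold change of -0.19 (SE 0.22). Lsm14a and Lsm14b, which act on cytoplasmic mRNA, had log2 fold changes of -0.21 (adjusted p = 0.355) and 0.41 (adjusted p = 0.173).

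The promoters of 4 of the 6 genes that passed are printed below, the only ones of the 6 with a promoter in the RefSeq set used. They are those of the paralogs that moved apart (Prpf38a and Prpf38b) and of the LSm genes that rose together. The sequences are the 250 bases before the annotated start, 5′ to 3′ on the gene's strand, from RefSeq on GRCm38.p6, a build other than the mm9 of the files. Their places are chr4:108579337-108579586 (minus strand), chr3:108911730-108911979 (minus), chr8:78821153-78821402 (minus) and chr6:18848385-18848634 (plus). Capitals mark matches, on either strand, to any of 7 motifs named in the next paragraph.
Prpf38a promoter: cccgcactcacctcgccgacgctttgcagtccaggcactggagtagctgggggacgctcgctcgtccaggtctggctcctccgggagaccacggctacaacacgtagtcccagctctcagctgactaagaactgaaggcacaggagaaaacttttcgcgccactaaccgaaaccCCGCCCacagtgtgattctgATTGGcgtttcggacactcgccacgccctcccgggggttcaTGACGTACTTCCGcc
Prpf38b promoter: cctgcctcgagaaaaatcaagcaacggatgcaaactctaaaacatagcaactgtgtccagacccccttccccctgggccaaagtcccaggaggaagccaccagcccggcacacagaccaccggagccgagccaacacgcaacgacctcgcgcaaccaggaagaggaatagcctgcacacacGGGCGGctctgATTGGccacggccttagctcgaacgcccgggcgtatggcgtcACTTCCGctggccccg
Lsm6 promoter: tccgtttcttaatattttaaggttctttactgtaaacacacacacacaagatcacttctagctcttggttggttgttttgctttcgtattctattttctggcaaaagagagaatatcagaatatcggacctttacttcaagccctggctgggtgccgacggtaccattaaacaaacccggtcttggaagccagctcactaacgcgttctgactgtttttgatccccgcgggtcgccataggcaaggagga
Lsm8 promoter: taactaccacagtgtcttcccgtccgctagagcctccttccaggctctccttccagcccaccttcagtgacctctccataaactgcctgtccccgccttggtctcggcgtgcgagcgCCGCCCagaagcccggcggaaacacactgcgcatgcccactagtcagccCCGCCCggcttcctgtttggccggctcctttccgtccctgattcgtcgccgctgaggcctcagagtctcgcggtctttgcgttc

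The motifs searched were GGGCGG (the Sp1 box), CCAAT (the NF-Y box), CGGAAGT (an ETS site), TGACGT (part of a cyclic AMP response element), CACGTG (an E-box), and 1 form each of the NRF1 and YY1 motifs, given by name. They were chosen with these promoters in view. Both strands were read and no matches overlapped in the printed promoters. Prpf38a held GGGCGG and CCAAT on the reverse strand, then TGACGT directly followed by a reversed CGGAAGT that ends 3 bases before the start. Prpf38b held GGGCGG on the forward strand, a reversed CCAAT and a reversed CGGAAGT that ends 10 bases before the start. So the paralogs that moved apart shared 3 of the 7 motifs. Lsm8 held GGGCGG at 2 places on the reverse strand, and Lsm6, with a GC content of 44.8%, held 0 matches, while GC content in the other 3 lay between 61.2% and 63.6%. Over the 41 of the 52 genes with a promoter in the table, GGGCGG was in 24 (58.5%) against 32.9% of 27025 promoters of all genes, and CGGAAGT was in 11 (26.8%) against 5.0%. The other 5 differed less, with CCAAT in 39.0% against 34.5%, TGACGT in 9.8% against 6.6%, CACGTG in 7.3% against 6.0%, the NRF1 motif in 2.4% against 0.8% and the YY1 motif in 0 of 41 against 0.3%. All-gene shares include genes that these cells do not express.

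Several of these genes start back to back with another gene. In the GENCODE M21 annotation 11 of the 52 (21.2%) have a protein-coding gene on the other strand whose start lies within 1000 bases and points away. The share was 7.2% of 21951 protein-coding genes, which include genes that these cells do not express. Of the 10 such neighbours of the 52 genes that were tested, 2 were called, close to the 18.4% of all genes. Prpf38a starts 87 bases from Orc1, a subunit of the origin recognition complex, which also rose (log2 fold change 1.08, edgeR adjusted p = 0.0203). Lsm7 starts 66 bases from Sppl2b, a membrane protease gene that rose (1.25, edgeR adjusted p = 0.0217), whereas Lsm7 did not pass. Snrnp40 starts 189 bases from Zcchc17, which did not pass (0.15, adjusted p = 0.562), and Prpf31 starts 56 bases from Tfpt, which did not pass (-0.39, adjusted p = 0.221). None of the 6 genes that passed shares exon sequence with another annotated gene in that annotation. Of the 52, 3 overlap a gene on the same strand and 9 one on the other strand.

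Partner proteins that the name rule does not take were counted from lists of the same particles. Of 66 tested, 5 rose and 2 fell (10.6% called, again below the 18.4% of all genes), with a median log2 fold change of 0.01. For each list in this paragraph and the next, the shares of all genes called were 8.9% higher and 9.5% lower. Of 16 snRNP assembly genes 2 rose and 0 fell, with a median of 0.25. They were Gemin4, at 102, 114 and 108 CPM in the libraries labelled Srsf1-cKO and 45.9, 65.0 and 37.0 CPM in WT (log2 fold change 1.13, SE 0.20, edgeR adjusted p = 0.0104), and Gemin5 (0.50, SE 0.13, edgeR adjusted p = 0.0301). Both belong to the SMN complex, which loads Sm rings onto snRNAs, and Gemin5 recognizes the snRNA. Among 14 partners of the tri-snRNP 1 rose and 0 fell. It was Nhp2l1, whose protein binds a kink in U4 RNA beside the Prpf31 protein, at 50.0, 52.5 and 52.8 CPM in the libraries labelled Srsf1-cKO and 35.8, 33.2 and 30.4 CPM in WT (0.64, SE 0.14, edgeR adjusted p = 0.0173). Ik, another factor of the same stage, missed the threshold (-0.36, adjusted p = 0.0592).

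Of 6 partners of U1, 2 rose and 0 fell, the related RNA-binding proteins Tia1 and Tial1, which help U1 onto splice sites followed by U-rich sequence. Tia1 had the largest difference on these lists, at 42.7, 40.7 and 29.8 CPM in the libraries labelled Srsf1-cKO and 8.51, 12.1 and 8.31 CPM in WT (log2 fold change 1.97, SE 0.22, edgeR adjusted p = 0.00358). Tial1 had a log2 fold change of 0.62 (SE 0.17, edgeR adjusted p = 0.0348). Among 10 partners of U2 and the branch site 1 fell and 0 rose, Smndc1, at 151, 154 and 124 CPM in the libraries labelled Srsf1-cKO and 222, 211 and 197 CPM in WT (-0.55, SE 0.13, edgeR adjusted p = 0.0239), while Sf1, the branch point binding protein, missed the threshold (-0.39, adjusted p = 0.0766). Of 20 genes of the Prp19 complex and the catalytic steps 1 fell and 0 rose. It was Slu7, a factor of the second step, at 76.2, 69.98 and 63.6 CPM in the libraries labelled Srsf1-cKO and 110.2, 92.4 and 106 CPM in WT (-0.56, SE 0.13, edgeR adjusted p = 0.0251), whereas Isy1 missed the threshold (0.55, adjusted p = 0.0521). Of the 66, Tia1 alone passed without WT replicate 1 (edgeR adjusted p = 0.0342) or without Srsf1-cKO replicate 2 (0.0253). DESeq2 called 12 of the 66, where 19.6% of all genes were called.

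Per length of transcript, the Sm genes led the order of levels. Mean FPKM (fragments per kilobase of transcript, scaled to depth, as deposited) over the 6 libraries was 519 for Snrpg, 278 for Snrpe, 206 for Snrpd3, 181 for Snrpd2 and 175 for Snrpd1, followed by 163 for U2af1 and 113 for Lsm5. Snrpg and Snrpe keep that order in both groups, at 517 ± 72.6 and 303 ± 22.9 FPKM in the libraries labelled Srsf1-cKO and 522 ± 86.8 and 253 ± 53.6 FPKM in WT (SD, n = 3 each). The middle of the order is crowded, and neighbours such as Prpf8 (79.3), U2af2 (78.2) and Lsm14a (77.2) do not differ beyond their spread. Lsm6 (6.56), Lsm11 (3.19) and Prpf40b (0.713) were the lowest. The subunits of 1 ring, which are present in equal numbers in the assembled particle, differed widely in FPKM, from 519 for Snrpg to 75.4 for Snrpf among the Sm genes and from 113 for Lsm5 to 6.56 for Lsm6 among the LSm genes. Counts and FPKM together imply a length of 109 bases for Snrpg, 195 bases for Snrpd2 and 4871 bases for Lsm6. The order therefore leans on how the FPKM values were made. These figures mix the lengths used with any difference in the reads that counts and FPKM gave to a gene. Those cannot be told apart here. By CPM, which is not per length, 0 of the 10 genes with the highest FPKM were among the top 10.

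**Figure D4:**
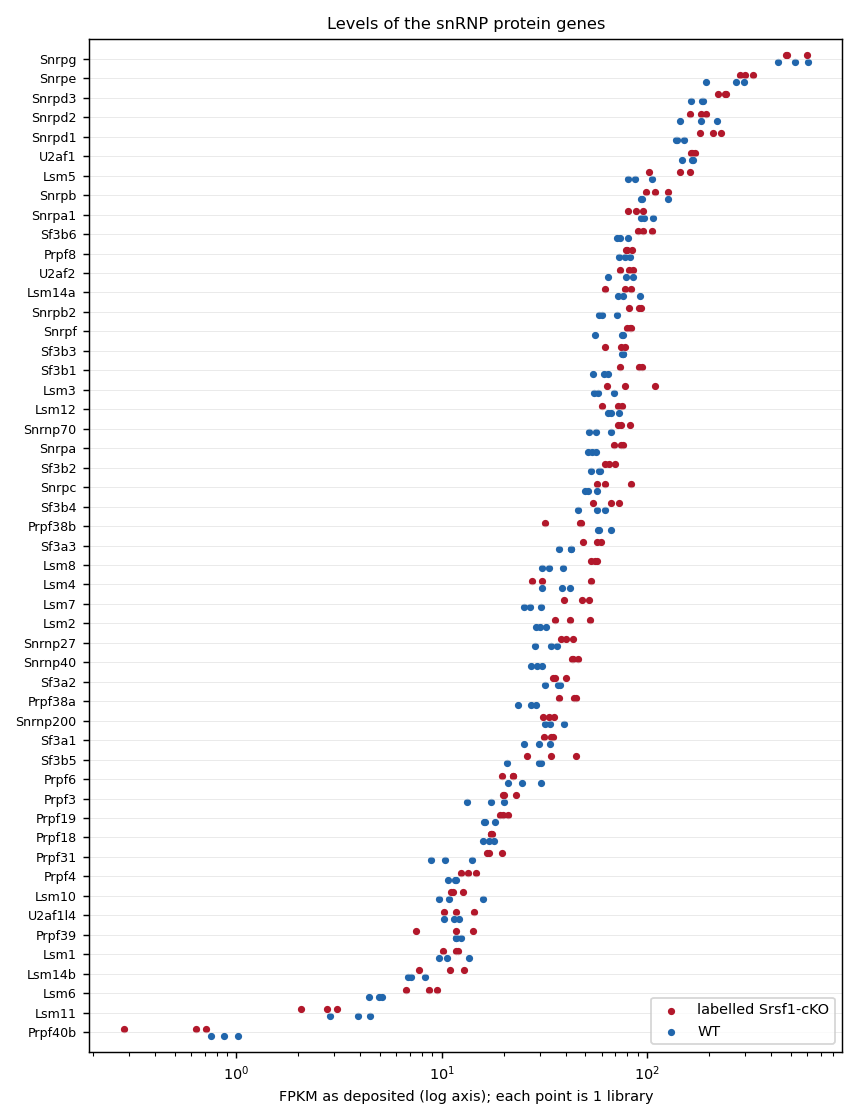
Deposited FPKM (x axis, log scale) of 51 of the 52 genes in order of their mean, with 1 point per library (red, labelled Srsf1-cKO; blue, WT). Levels run from 519 for Snrpg to 0.713 for Prpf40b, and for most genes the 2 colours lie close together on this scale.

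Together the 52 genes took 0.682%, 0.717% and 0.691% of gene counts in the libraries labelled Srsf1-cKO, against 0.623%, 0.630% and 0.609% in WT, with no overlap. After TMM scaling their summed level was 6728, 6861 and 6607 CPM in the libraries labelled Srsf1-cKO and 6646, 6419 and 6256 CPM in WT, where WT replicate 1 lies above Srsf1-cKO replicate 3.

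The alignment report gives the number of splices, which are the introns crossed by aligned reads, summed over each library. There were 27.1, 26.9 and 27.1 splices per 100 uniquely mapped reads in the libraries labelled Srsf1-cKO, against 29.6, 30.5 and 27.9 in WT. All 3 libraries labelled Srsf1-cKO lie below all WT libraries, with a mean difference of -2.31 splices per 100 reads (exact two-sided permutation p = 0.1, the smallest that 3 against 3 libraries allow, and 0.125 adjusted over the 5 measures tested). The share of splices with GC/AG ends was 1.15%, 1.09% and 1.11% in the libraries labelled Srsf1-cKO, against 1.26%, 1.27% and 1.31% in WT (exact permutation p = 0.1). AT/AC ends, many of which belong to the minor spliceosome, made up 0.0918%, 0.0969% and 0.0923% of splices in the libraries labelled Srsf1-cKO, against 0.0763%, 0.0753% and 0.0815% in WT (exact permutation p = 0.1). Annotated junctions were 98.6 ± 0.114% of splices in the libraries labelled Srsf1-cKO and 98.6 ± 0.0944% in WT (SD, n = 3 each; exact permutation p = 0.4). Which genes the splices come from is not in that summary. A difference in the genes expressed and a difference in their splicing therefore cannot be told apart here.

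**Figure D5:**
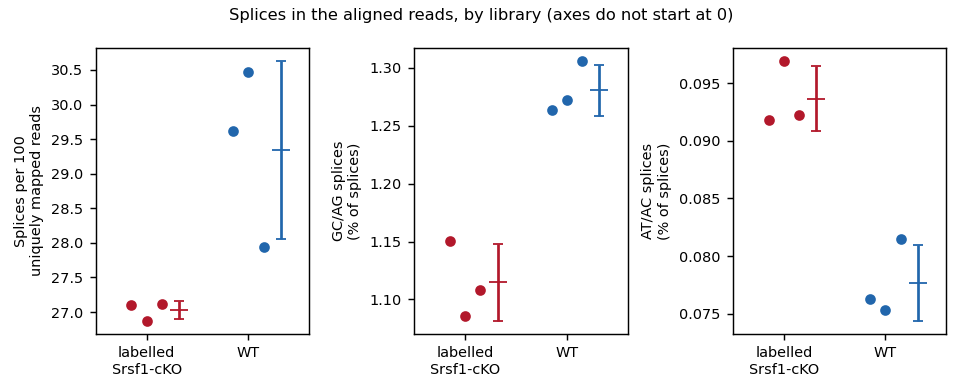
Splices per 100 uniquely mapped reads and the shares of splices with GC/AG and AT/AC ends (y axes, not starting at 0) in the 3 libraries labelled Srsf1-cKO (red, left) and the 3 WT libraries (blue, right), with the mean ± SD beside the points. The groups do not overlap in any panel, with the libraries labelled Srsf1-cKO lower in the first and second and higher in the third.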

How the data were processed

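Whole-number read counts per gene symbol were deposited for all 6 libraries. A second deposited table holds FPKM values, a unit read from the values, and per the submitters' processing notes the authors used STAR, Cufflinks and the mm9 build. Per the file headers, the alignment report comes from STAR 2.4.2a. The annotation, the counting program and its strand setting were not found in the labels or headers. Overlapping genes, antisense partners and close paralogs may therefore have exchanged reads.

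Differences in counts were taken from edgeR 4.0.16 under R 4.3.3 (quasi-likelihood test, two-sided, filterByExpr, TMM scaling, genotype as the only term) over 10454 genes, with Benjamini-Hochberg adjustment and calls at an adjusted p under 0.05. "Rose" and "fell" are used of calls. For FPKM, limma 3.58.1 was run on log2(FPKM + 1), keeping genes that reached 1 in 3 or more libraries, a scale that understates the change of low genes. Single library values were compared by exact permutation tests. The edgeR script was checked on simulated counts. DESeq2 1.42.0, limma-voom, other scalings, filters and thresholds, a replicate block and leaving out each library were the alternatives. Replicates of a group differed by more than sampling noise (chi-square per degree of freedom between 6.58 and 39.8). Genes were named by a rule: the called genes, for each role the most abundant per length and the highest and lowest log2 fold change, the 2 partners with the smallest adjusted p on each partner list, and Srsf1. Other named genes were chosen after their values were seen. The genes, lists and tests were chosen with earlier results of these data known. The values of 1 of the 52 genes are not reported here, although the counts include it. No mitochondrially encoded gene was found by its symbol prefix.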

Additional observations from a re-analysis of the deposited data

How the results depend on the processing

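Of the 52 genes, 10 were called with library-size scaling, 17 by limma-voom with sample weights, 11 on log2(FPKM + 1) and 11 on log2(FPKM + 0.1), 0 at an adjusted p under 0.01 (16 at an unadjusted p under 0.05) and 14 under 0.10, and 0 to 6 with a library left out. Over all genes, 1977 of 10454 were called with library-size scaling, 4355 of 10454 with sample weights, and 1801 and 1774 of 9617 on the 2 FPKM scales. At those thresholds 279 and 2972 of 10454 were called, and with a library left out 195 (1.84%) to 1989 (18.7%). On log2(FPKM + 1) without the filter, 7 of the 52 were called, and 1146 of 15192 over all genes. Of the 66 partner genes, 12 were called with library-size scaling, 12 by DESeq2, 26 with sample weights and 12 on either filtered FPKM scale. At the 2 thresholds 1 and 18 were called, and 1 to 10 with a library left out. By CPM instead of FPKM, 0 of the 10 highest genes were the same. The difference in splices per 100 reads lay between -3.01 and -1.75 with a library left out and was -2.26 per 100 gene counts.

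Same-numbered libraries deviated together in 2 of 3 pairs (correlations 0.255, 0.01 and 0.29). Between libraries with different numbers the correlations ran from -0.343 to 0.213. The labels name no batch, and the main test did not take the numbers as pairs. With the replicate block, 10 of the 52 genes, 2270 of all genes and 10 of the 66 partners were called.

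Among the genes named by the rule, each reversed log2 fold change was of a gene that passed in neither fit. With library-size scaling these were Snrpg (0.0569), U2af1 (0.0605), U2af1l4 (0.0831), U2af2 (0.0378), Prpf8 (0.0606) and Lsm4 (0.0072). On log2(FPKM + 1), with and without the filter, they were U2af1 (0.0617), U2af1l4 (0.092), U2af2 (0.0791) and Prpf8 (0.0648), and on log2(FPKM + 0.1) the same 4 (0.062, 0.0984, 0.0801 and 0.0655). Of the other members, Snrpb (0.0971), Sf3a2 (0.0638), Prpf18 (0.0403), Lsm1 (0.0095) and Lsm12 (0.0224) also turned positive on log2(FPKM + 1). With a library left out, values ran between -0.1914 and 0.0273 for Snrpg, -0.1569 and 0.08 for U2af1l4, -0.173 and 0.0065 for U2af2, -0.4538 and 0.0648 for Lsm4, and -0.0047 and 0.115 for Srsf1. The cause was not tested. Few counts limit Prpf40b and Lsm7, which held under 100 counts in every library. Lsm7 was not low per length, with a mean of 37.0 FPKM, and its counts and FPKM together imply a length of 176 bases.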
